A study of Danio rerio with 6 samples.

Results

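Aquaporins are channel proteins that let water cross cell membranes, and a branch of the family, the aquaglyceroporins, also passes glycerol. Epithelia, red blood cells, capillaries and glia of vertebrates rely on them for fluid movement. In the ear they are known mainly from mammals, where supporting cells and the cells around the endolymph, the potassium-rich fluid that bathes the hair bundles, carry several of them.

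The 9 aquaporin genes described here (aqp1a.1, aqp3a, aqp4, aqp7, aqp8a.1, aqp9a, aqp10a, aqp11 and aqp12) were chosen by symbol in a table of 31701 zebrafish genes. Of the 9, 8 had a row and aqp9a was not analysed here. A further 8 genes of the family with a row (aqp1a.2, aqp3b, aqp8a.2, aqp8b, aqp9b, aqp10b, mipa and mipb) are given beside them, which makes 16 aquaporin rows in all.

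The values come from RNA-seq of adult zebrafish ears, in which the hair cells were sampled 3 times, and so were non-sensory surrounding cells (nsSCs), at 1000 cells a sample. Hair cells were picked by hand as GFP-positive cells with a visible hair bundle, and nsSCs as GFP-negative cells with none, both pooled from the utricle, saccule and lagena of several fish. All fish were females of 11 to 13 months of the line Tg(pou4f3:GAP-GFP)s273t, in which the promoter of a hair cell transcription factor gene, pou4f3, drives membrane-bound GFP. Levels are in RPKM, a read count divided by transcript length and by the mapped reads of the library, so that genes can be compared with each other.

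Hair cell and nsSC libraries stood apart across the whole transcriptome, and nsSCs carried the transcripts of many cell types. Between 17308 and 18936 genes were above 0 RPKM in the hair cell libraries, and between 22021 and 22470 in the nsSC libraries. All 11 rows of the hair cell markers, led by s100s and slc17a8, were higher in hair cells, with sums of 24500 to 24700 RPKM in hair cells and 97.9 to 98.8 RPKM in nsSCs. Genes were tested where their mean reached 0.1 RPKM in hair cells, nsSCs or both. The markers lhfpl5a, myo7aa and the rows of cdh23 passed this filter only through hair cells, so that they had to differ. Over all tested genes, 31.0% were called higher in hair cells and 35.4% lower. Of 11 markers of supporting cells and epithelium, 6 were higher in hair cells, and 5, among them krt18 and epcam, were lower. The supporting cell genes sox2, tecta and tectb were among those higher in hair cells (sox2 averaged 31 ± 2.89 in hair cells against 1.04 ± 0.27 RPKM in nsSCs, SD, n = 3), so that these markers do not set nsSCs apart as supporting cells. In a bulk sample, fewer cells of a type and less RNA per cell cannot be told apart. None of 84 ribosomal protein rows, genes that every cell uses, was at 0 in any library.

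Hair cells and nsSCs differed in their leading aquaporins. The aquaporin transcripts of hair cells were mostly aqp11, and those of nsSCs mostly aqp3a and aqp1a.1. The summed RPKM of the 16 rows was 14.89, 15.59 and 15.99 in hair cell libraries 1, 2 and 3, against 66.79, 63.9 and 68.01 in nsSC libraries 1, 2 and 3. The sum was lower in every hair cell library than in any nsSC library. aqp11 made up 86.5 ± 1.32% (SD, n = 3) of the sum in hair cells and 6.48 ± 0.872% (SD, n = 3) in nsSCs. aqp3a made up 4.21 ± 0.423% in hair cells and 53.9 ± 1.14% in nsSCs, and aqp1a.1 made up 8.35 ± 1.55% in hair cells and 35.4 ± 0.409% in nsSCs (SD, n = 3). The other 13 rows together made up 0.91 ± 1.16% in hair cells and 4.22 ± 0.131% in nsSCs. These shares are ratios within a library and do not move when a library is rescaled.

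**Figure D1:**
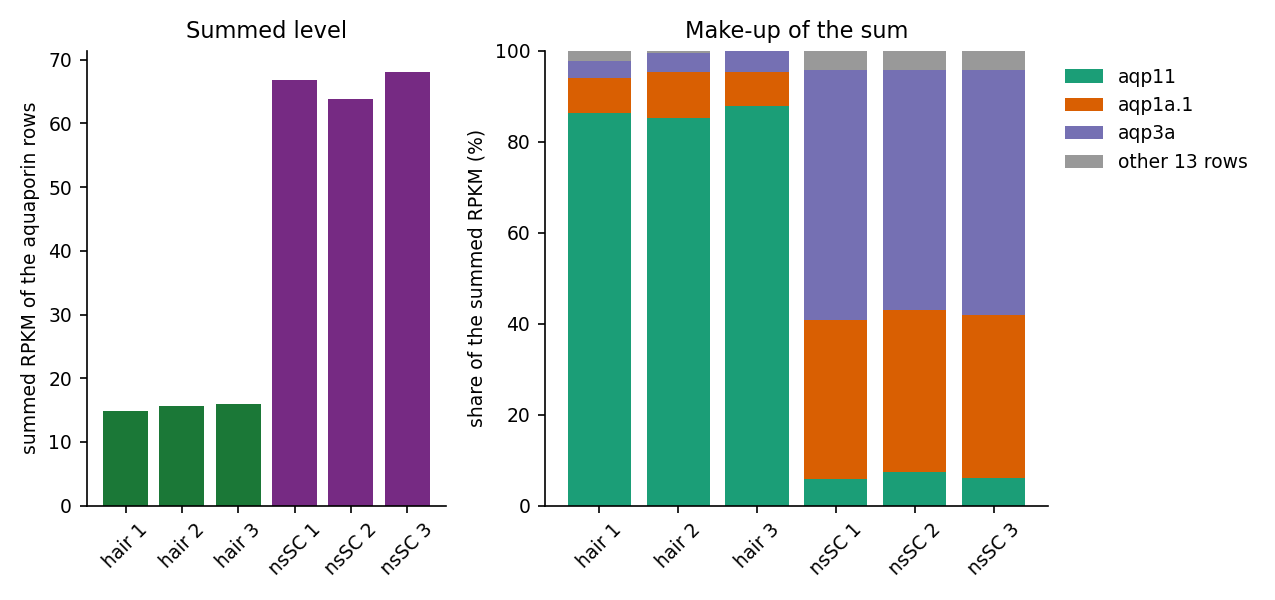
Left, the summed RPKM of the 16 aquaporin rows in each library (bars, axis from 0), with hair cells in green and nsSCs in purple. Right, the share of that sum (%) held by aqp11, aqp1a.1, aqp3a and the other 13 rows; aqp11 holds 85.3 to 87.9% in the hair cell libraries, and aqp3a holds 52.7 to 55% in the nsSC libraries.

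Which aquaporins differ between the cell types was asked gene by gene. A gene was tested where its mean reached 0.1 RPKM in hair cells, nsSCs or both. The test was limma on log2(RPKM + 0.1), and calls needed an adjusted p (Benjamini-Hochberg) under 0.05 together with 2-fold or more on this scale. A positive log2 fold change means higher in hair cells. Of the 8 members with a row, 4 passed the filter. One of these, aqp11, was called higher in hair cells, where 31.0% of the 22374 tested genes were, and 3 (aqp3a, aqp1a.1 and aqp4) were called lower, where 35.4% of the tested genes were. A call by itself was common, at 66.4% of tested genes in either direction, so the counts are a description and the sizes below carry the result. The 3 libraries of each cell type did not overlap for any of the 4 members, and did not overlap for 85.1% of the tested genes.

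aqp11 (ENSDARG00000100555) was the 1 member called higher in hair cells. In mammals its product lies in membranes inside the cell, chiefly the endoplasmic reticulum, and it belongs to the unorthodox branch of the family whose pore motif departs from that of the classical water channels. It measured 12.86, 13.3 and 14.06 RPKM in hair cell libraries 1, 2 and 3, against 3.88, 4.77 and 4.19 RPKM in nsSC libraries 1, 2 and 3. Every hair cell library was above every nsSC library, and the mean was 13.4 ± 0.607 in hair cells against 4.28 ± 0.452 RPKM in nsSCs (SD, n = 3), a ratio of 3.13. The log2 fold change was 1.63 (standard error 0.10, limma adjusted p = 4.3e-06). Since the libraries were not scaled beyond RPKM, the scaling matters for a change of this size. When each library was rescaled by its median ratio to the others, which moved the median of all tested genes to -0.48, the log2 fold change of aqp11 was 1.16. With each library scaled to the same total, which moved that median to 0.49, it was 2.11. It was called in both. Among all genes, aqp11 stood at rank 5363 of 31701 by its mean in hair cells and at rank 8262 in nsSCs.

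aqp3a (ENSDARG00000003808), an aquaglyceroporin whose mammalian counterpart passes water and glycerol through the basolateral membrane of epithelia such as the epidermis, was the most abundant aquaporin of nsSCs. It measured 0.58, 0.63 and 0.75 RPKM in hair cell libraries 1, 2 and 3, against 36.72, 33.68 and 36.69 RPKM in nsSC libraries 1, 2 and 3. The nsSC libraries lay close together, with a coefficient of variation of 4.89%, and far above all hair cell libraries. The mean was 0.653 ± 0.0874 in hair cells against 35.7 ± 1.75 RPKM in nsSCs (SD, n = 3), so that hair cells were at 1.83% of the nsSC level. The log2 fold change was -5.58 (standard error 0.11, limma adjusted p = 2.3e-08). Among all genes, aqp3a stood at rank 14448 in hair cells and at rank 1956 in nsSCs.

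aqp1a.1 (ENSDARG00000023713), a water channel gene whose mammalian counterpart is the main aquaporin of red blood cells and capillary endothelium, was the second aquaporin of both cell types. It measured 1.12, 1.58 and 1.18 RPKM in hair cell libraries 1, 2 and 3, against 23.37, 22.67 and 24.35 RPKM in nsSC libraries 1, 2 and 3. The cell types did not overlap, and the spread relative to the mean was 19.3% in hair cells and 3.6% in nsSCs. Mean levels were 1.29 ± 0.25 in hair cells against 23.5 ± 0.844 RPKM in nsSCs (SD, n = 3), or 5.51% of the nsSC level in hair cells. The log2 fold change was -4.09 (standard error 0.14, limma adjusted p = 2e-07). In the RefSeq gene list of the GRCz12tu assembly, a long non-coding RNA entry overlaps aqp1a.1, and reads of the 2 cannot be told apart where strand was not used, which is not stated for these counts. The same list has overlapping entries at aqp7, aqp8a.1, aqp3b, aqp9b, aqp10b and mipb.

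Within each library the order of these 3 genes differed between the cell types. aqp11 was at 22.2, 21.1 and 18.7 times the level of aqp3a in hair cell libraries 1, 2 and 3, against 0.106, 0.142 and 0.114 times in nsSC libraries 1, 2 and 3. aqp1a.1 was at 1.93, 2.51 and 1.57 times the level of aqp3a in hair cell libraries 1, 2 and 3, against 0.636, 0.673 and 0.664 times in nsSC libraries 1, 2 and 3. The order was thus aqp11, aqp1a.1, aqp3a in all 3 hair cell libraries and aqp3a, aqp1a.1, aqp11 in all 3 nsSC libraries.

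**Figure D2:**
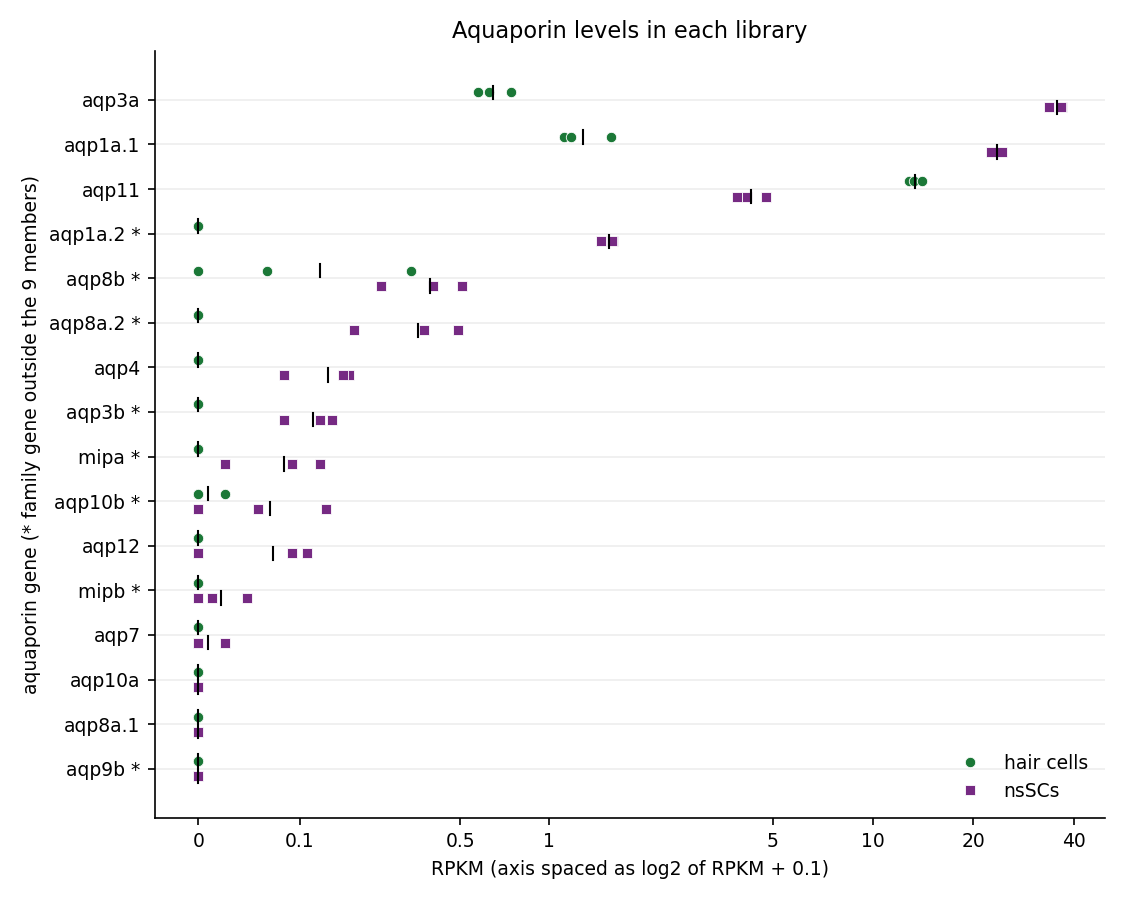
RPKM of the 16 aquaporin rows in each library, on an axis spaced as log2(RPKM + 0.1), with hair cells as green circles, nsSCs as purple squares and black ticks for the means of 3; an asterisk marks family genes outside the 9 members. aqp11 lies to the right in hair cells, at 12.86 to 14.06 RPKM, aqp3a and aqp1a.1 lie to the right in nsSCs, and 12 of the 16 rows stay under 1 RPKM in both cell types.

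The remaining members were low or absent. aqp4, the water channel of glial end-feet and of supporting cells in the mammalian ear, was listed at 0 in all 3 hair cell libraries and reached 0.18, 0.08 and 0.17 RPKM in nsSC libraries 1, 2 and 3. It was called lower in hair cells (limma adjusted p = 0.0024). Because hair cells were listed at 0, the pseudocount sets the size of the fitted change, and with a pseudocount of 1 RPKM it was short of 2-fold. The filter passed aqp4 only through the nsSC level, so that it had to differ.

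aqp12, whose mammalian counterparts are channels of pancreatic acinar cells, was listed at 0 in hair cells and in nsSC library 1 and reached 0.11 and 0.09 RPKM in nsSC libraries 2 and 3. aqp7, the glycerol channel of mammalian fat cells, was listed at 0 in 5 libraries and reached 0.02 RPKM in nsSC library 2. aqp8a.1, of a group that passes water and other small molecules, and aqp10a, an aquaglyceroporin known from the human gut, were listed at 0 in all 6 libraries. These 4 members did not reach the filter and were not tested. The values are rounded to 0.01 RPKM, so that a listed 0 may be a value under that step. Whether low values were also set to 0 before deposit is not stated. The values hold no read counts, so that no counting interval can be given for a 0.

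Among the family genes outside the 9 members, aqp1a.2 was the highest. It is the gene next to aqp1a.1 in the GRCz12tu gene order, and it was listed at 0 in all 3 hair cell libraries, against 1.61, 1.6 and 1.47 RPKM in nsSC libraries 1, 2 and 3 (limma adjusted p = 2.2e-07). In nsSCs it was at 6.04 to 7.06% of the level of aqp1a.1 in the same library. aqp3b, the paralog of aqp3a, was listed at 0 in all 3 hair cell libraries, against 0.13, 0.15 and 0.08 RPKM in nsSC libraries 1, 2 and 3 (limma adjusted p = 0.0025), or 0.218 to 0.445% of aqp3a in the nsSC libraries. In both pairs, 1 copy carried nearly all of the signal in nsSCs. How the authors' counting treated any reads that match both copies of a pair is not stated.

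The aqp8 genes were low in both cell types. aqp8a.2, the neighbour of aqp8a.1 in the gene order, was listed at 0 in all 3 hair cell libraries, against 0.37, 0.49 and 0.19 RPKM in nsSC libraries 1, 2 and 3 (limma adjusted p = 0.00034). aqp8b measured 0.33, 0.06 and 0 RPKM in hair cell libraries 1, 2 and 3, against 0.4, 0.25 and 0.51 RPKM in nsSC libraries 1, 2 and 3. The cell types overlapped for aqp8b, and it was not called (log2 fold change -1.32, standard error 0.53, limma adjusted p = 0.052). That result rests on hair cell library 1: without it the log2 fold change was -1.91 and the limma adjusted p 0.0024. The hair cell values left in that fit were 0.06 and 0 RPKM. The filter then passed aqp8b only through nsSCs, and the pseudocount bears on this fitted change. As with aqp4, the filter passed aqp1a.2, aqp3b and aqp8a.2 only through nsSCs. aqp8b was also called lower under median-ratio scaling (-1.60, adjusted p = 0.02), with each library scaled to the same total without mitochondrial genes (-1.54, adjusted p = 0.027), and with a replicate block (-1.32, adjusted p = 0.044).

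The lens aquaporins mipa and mipb, the aquaglyceroporin aqp10b and aqp9b were at or near 0. mipa was listed at 0 in hair cells and reached 0.09, 0.02 and 0.13 RPKM in nsSC libraries 1, 2 and 3. aqp10b reached 0.02 RPKM in hair cell library 2 and 0.05 and 0.14 RPKM in nsSC libraries 2 and 3, and mipb reached 0.04 RPKM at most, in nsSC library 1. aqp9b was listed at 0 in all 6 libraries. Of the 16 rows, 11 were listed at 0 in all 3 hair cell libraries, and 3 were listed at 0 in all 6 libraries. In 1 or more nsSC libraries 13 of the 16 were above 0. Among all 31701 rows, tested or not, 38.4% were listed at 0 in all 3 hair cell libraries and 25.3% in all 3 nsSC libraries. Of the 8 tested aquaporins, aqp4, aqp1a.2, aqp3b and aqp8a.2 were listed at 0 in all 3 hair cell libraries, as were 17.2% of all tested genes. None of the 8 was listed at 0 in all 3 nsSC libraries, where 4.25% of all tested genes were. Of the tested genes that stayed under 1 RPKM in both cell types, 51.6% were called lower and 16.0% higher in hair cells.

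**Figure D3:**
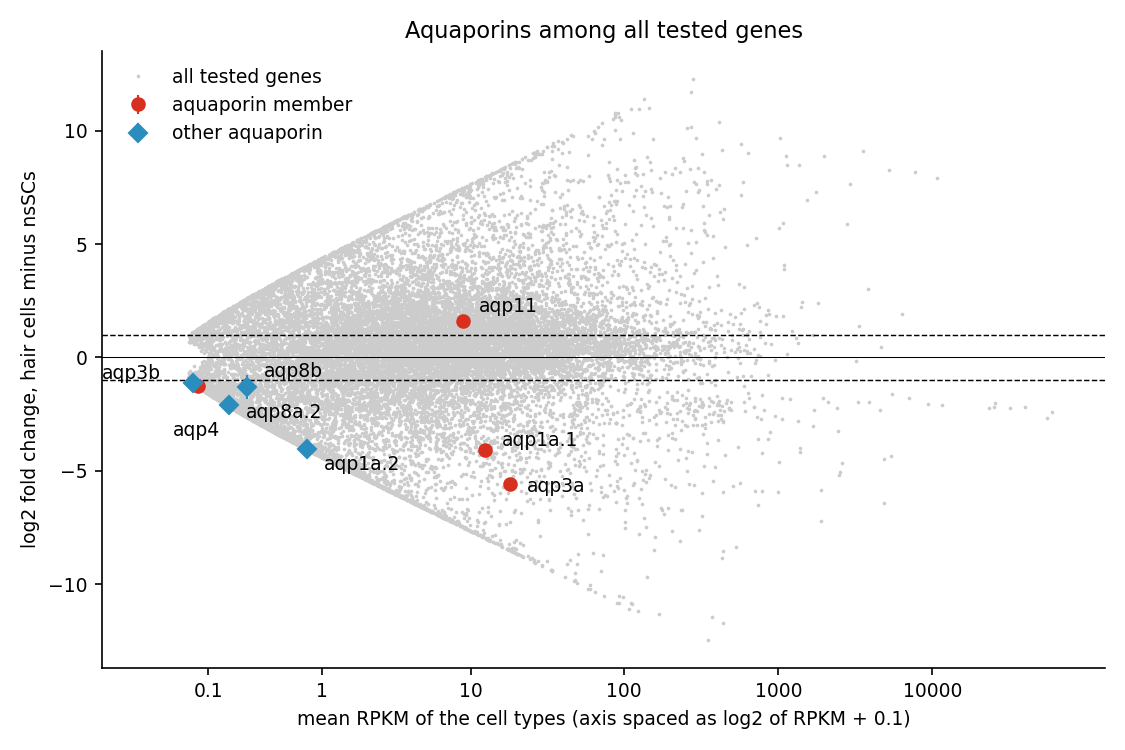
Log2 fold change (hair cells minus nsSCs) against the mean RPKM of the cell types, on an axis spaced as log2(RPKM + 0.1), for all 22374 tested genes (grey), the 4 tested members (red circles) and 4 other tested aquaporins (blue diamonds); bars are standard errors and dashed lines mark 2-fold. aqp11 sits above the upper line at 1.63, aqp1a.1 and aqp3a sit at -4.09 and -5.58, and the genes listed at 0 in hair cells lie on the lower edge of the cloud.

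Many markers of other cell types were lower in hair cells, as aqp1a.1 and aqp3a were, and others were higher or not called. All 8 rows of the red blood cell markers were lower in hair cells, at 943 to 1020 RPKM in sum in hair cells and 20500 to 24300 RPKM in nsSCs, and single rows were at 2.99% (hbaa1) to 9.29% (alas2) of their nsSC level in hair cells. aqp1a.1, at 5.51%, lay within this range. Rows of other lists lay on both sides of aqp1a.1 too. Among the glial markers cldnk was at 4.53% and plp1b at 17.4% of the nsSC level in hair cells. Among the fibroblast markers dcn was at 3.07% and col1a2 at 7.94%, and among the leukocyte markers lyz was at 2.49% and spi1b at 7.95%. Of 10 endothelial markers 8 were lower in hair cells, with sums of 2.57 to 3.03 RPKM in hair cells and 37.9 to 40.2 RPKM in nsSCs. The endothelial genes cdh5, pecam1, tie1, cldn5b and fli1a were listed at 0 in all 3 hair cell libraries and egfl7 and flt1 were at 0.04 RPKM or less. The filter passed these genes only through nsSCs, so that they had to differ. Of all tested genes, 35.4% were called lower. In hair cells kdrl was at 30.6%, tek at 57.5% and vwf at 67.3% of the nsSC level, and tek and vwf were not called. In the list of supporting cells and epithelium, the keratin genes krt4, krt18 and krt8 were at 0.988%, 1.56% and 4.32% of the nsSC level in hair cells, epcam at 17.9% and cldnb at 45.6%. The other 6 (jag1a, lfng, tecta, otomp, sox2 and tectb) were at 300% (jag1a) to 4920% (tectb), beside 1.83% for aqp3a. Rows of other lists lay on both sides of aqp3a too, among them ptprc (1.63%) and lyz (2.49%) of leukocytes, and pdgfra (0.544%) and dcn (3.07%) of fibroblasts. The summed markers of supporting cells and epithelium were at 524 to 536 RPKM in hair cells and 1730 to 1850 RPKM in nsSCs. The part of these cells in the aquaporin levels was not tested.

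Markers of ionocytes, cells of fish epithelia that move ions, went both ways. Of 9 markers 4 were lower in hair cells, 2 (ca2 and foxi3a) were higher and 3 were not called, with sums of 20.5 to 21.5 RPKM in hair cells and 31.8 to 33.9 RPKM in nsSCs. The ionocyte factor genes foxi1 and foxi3b were listed at 0 in all 3 hair cell libraries. The means of slc12a10.2 and slc4a1b in hair cells were 0.00333 and 0.00667 RPKM. The filter passed these 4 lower markers only through nsSCs, so that they had to differ. In the lists of glia 8 of 9 tested rows were lower in hair cells, of fibroblasts 6 of 6, of leukocytes 7 of 7, of muscle 6 of 7 and of pigment cells 3 of 4. Over all tested genes 35.4% were called lower. Of these rows 3 of glia, 1 of fibroblasts, 2 of leukocytes, 2 of muscle and 3 of pigment cells were listed at 0 in all 3 hair cell libraries. The filter passed them, and rows with a hair cell mean under 0.1 RPKM, only through nsSCs, so that they had to differ. desma in the muscle list and dct in the pigment list were higher in hair cells and are named because they go against the rest. The filter passed dct only through hair cells. In the glial list sox10 was not called. It was at 42.1 ± 2.77 in hair cells against 59.4 ± 2.82 RPKM in nsSCs (SD, n = 3), or 70.9% of the nsSC level. The summed level in hair cells was 3.69% of that in nsSCs for glia, 3.1% for fibroblasts, 2.26% for leukocytes, 4.59% for muscle and 9.16% for pigment cells. Of the adipocyte markers, 3 of 5 were not tested, adipoqa, which passed the filter only through nsSCs, was lower in hair cells and pparg was not called. Glial mbpa, from the list of Schwann cells and other glia, was at 133 ± 5.78 in hair cells against 4820 ± 101 RPKM in nsSCs (SD, n = 3). It made up most of the glial sums, which were 178 to 190 RPKM in hair cells and 4840 to 5020 RPKM in nsSCs. aqp4, the aquaporin of mammalian astrocytes, stayed under 0.2 RPKM. No list of astrocyte markers was used, so that the glial markers do not bear on the level of aqp4.

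**Figure D4:**
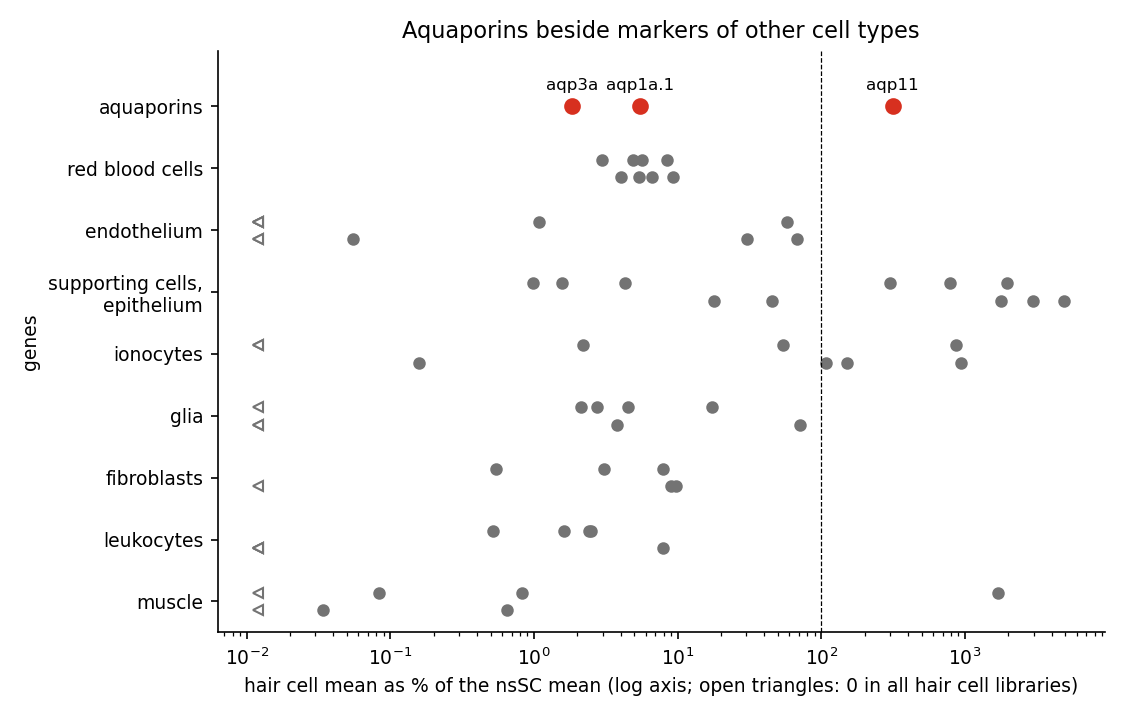
Hair cell mean as a percent of the nsSC mean (log axis) for aqp3a, aqp1a.1 and aqp11 (red) and for each marker of 8 other cell types (grey); open triangles at the left mark genes listed at 0 in all hair cell libraries and the dashed line marks equal levels. aqp1a.1, at 5.51%, lies among the red blood cell markers (2.99 to 9.29%) and also between markers of glia, of fibroblasts and of leukocytes. aqp11 lies right of the line at 313%.

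Genes for the dystrophin complex, which holds Aqp4 at the glial membrane in mammals, and for the Kir4.1 channel found with it were set beside aqp4. Of 11 tested rows, 4 were higher in hair cells, 3 were lower and 4 were not called, and the median log2 fold change was -0.44, against 0.0 over all tested genes. These counts are 36.4% higher and 27.3% lower, near the 31.0% and 35.4% of all tested genes. The syntrophin gene sntb1 was at 9.19 ± 1.13 in hair cells against 21 ± 0.961 RPKM in nsSCs, and the dystroglycan gene dag1 at 2.22 ± 0.219 in hair cells against 8.69 ± 0.492 RPKM in nsSCs (SD, n = 3). The Kir4.1 gene kcnj10a went the other way, with 1.87, 1.15 and 1.06 RPKM in hair cell libraries 1, 2 and 3, and was listed at 0 in all 3 nsSC libraries. The dystrobrevin genes dtnba (9.63 ± 0.283 in hair cells against 3.97 ± 0.673 RPKM in nsSCs) and dtna (2.12 ± 0.522 in hair cells against 0.0667 ± 0.0586 RPKM in nsSCs) were higher in hair cells. The filter passed kcnj10a, dtna and another dystrobrevin gene, dtnbb, all called higher, only through hair cells. It passed 1 row, listed at 0 in all 3 hair cell libraries and called lower, only through nsSCs. The dystrophin gene dmd, at 10.5 ± 1.33 in hair cells against 16.9 ± 1.41 RPKM in nsSCs, was short of 2-fold. With median-ratio scaling the split was 3 higher and 5 lower, and with the same total 5 higher and 2 lower.

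Genes by which cells regulate their volume were the next list. Of 16 tested rows 2 were higher in hair cells, 7 were lower and 7 were not called, with a median log2 fold change of -0.67. That is 12.5% higher and 43.8% lower, against 31.0% and 35.4% of all tested genes. The potassium-chloride cotransporter genes slc12a4 and slc12a7b, whose products let a swollen cell lose salt and water, were at 1.32 ± 0.221 and 0.787 ± 0.186 in hair cells against 42.4 ± 5.22 and 13 ± 1.09 RPKM in nsSCs (SD, n = 3). lrrc8aa, for the subunit that the volume-regulated anion channel requires, was at 3.53 ± 0.687 in hair cells against 18.6 ± 0.133 RPKM in nsSCs. Another subunit of that channel was high in hair cells: lrrc8db measured 4.82, 5.34 and 5.66 RPKM in hair cell libraries 1, 2 and 3, against 0.08, 0.03 and 0.02 RPKM in nsSC libraries 1, 2 and 3 (log2 fold change 5.25, standard error 0.19, limma adjusted p = 3e-07). The filter passed lrrc8db only through hair cells, so that the gene had to differ and the pseudocount bears on its fitted change. It passed lrrc8c and trpv4, called lower and listed at 0 in all 3 hair cell libraries, only through nsSCs. oxsr1a, a kinase gene of cotransporter control, was at 7.5 ± 0.378 in hair cells against 3.58 ± 1.08 RPKM in nsSCs, a log2 fold change of 1.09. Without nsSC library 3, 1 gene of the list was called higher. The sodium-potassium-chloride cotransporter gene slc12a2, at 26.6 ± 0.936 in hair cells against 41.2 ± 3.35 RPKM in nsSCs for the more abundant of its 2 rows, was short of 2-fold. With median-ratio scaling the split of the list was 1 higher and 9 lower, and with the same total 3 higher and 6 lower.

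Organic osmolytes are small molecules that cells store to hold water. Of 8 tested rows for their uptake, synthesis and control, 4 were higher in hair cells, 2 were lower and 2 were not called, with a median log2 fold change of 1.03. That is 50% higher and 25% lower, against 31.0% and 35.4% of all tested genes. The taurine transporter genes slc6a6a and slc6a6b were at 7.47 ± 0.693 and 6.58 ± 0.989 in hair cells against 0.163 ± 0.13 and 0.32 ± 0.151 RPKM in nsSCs (SD, n = 3). The inositol transporter gene slc5a3b was at 7.47 ± 0.906 in hair cells against 2.55 ± 0.39 RPKM in nsSCs. slc6a13, a transporter gene for GABA and taurine, was at 2.02 ± 0.259 in hair cells against 7.96 ± 0.549 RPKM in nsSCs, and slc6a11b was lower in hair cells at 0.00333 ± 0.00577 RPKM, against 0.307 ± 0.0153 RPKM in nsSCs, through which alone it passed the filter. The inositol phosphatase gene impa1, at 21.2 ± 1.6 in hair cells against 14.5 ± 0.595 RPKM in nsSCs, was short of 2-fold.

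Because aqp3a can pass glycerol, genes of glycerol release and use were set beside it. Of 14 tested rows 4 were higher in hair cells, 7 were lower and 3 were not called, with a median log2 fold change of -1.03. That is 28.6% higher and 50% lower, against 31.0% and 35.4% of all tested genes. The enzyme genes gpd1b and gpd1c, for glycerol-3-phosphate dehydrogenases, were at 1.83 ± 0.261 and 0.02 ± 0.0346 in hair cells against 41.1 ± 1.86 and 30.9 ± 1.04 RPKM in nsSCs (SD, n = 3). The lipid droplet gene PLIN3 was at 1.78 ± 0.243 in hair cells against 28.5 ± 1.38 RPKM in nsSCs. The gene lipea, for a hormone-sensitive lipase, 1 of the enzymes that break down stored fat, went the other way. It was at 43.07, 43.38 and 41.91 RPKM in hair cell libraries 1, 2 and 3, against 0.86, 1.02 and 0.78 RPKM in nsSC libraries 1, 2 and 3 (log2 fold change 5.45, standard error 0.11, limma adjusted p = 2.1e-08). The lipase genes lpl and pnpla2 were lower in hair cells, at 5.64% and 6.29% of the nsSC level. gpam, for the first acyl transfer onto glycerol-3-phosphate, was at 23.6 ± 1.3 in hair cells against 2.09 ± 0.352 RPKM in nsSCs, and lipeb at 5.96 ± 0.832 in hair cells against 2.72 ± 0.266 RPKM in nsSCs. The monoglyceride lipase gene mgll, at 15.5 ± 1.45 in hair cells against 12.6 ± 1.28 RPKM in nsSCs, was not called. The list had 3 higher and 7 lower with median-ratio scaling, with the same total without mitochondrial genes and without hair cell library 1. The filter passed gpd1c, pnpla2, gk5 and gpd1a, all called lower, only through nsSCs.

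**Figure D5:**
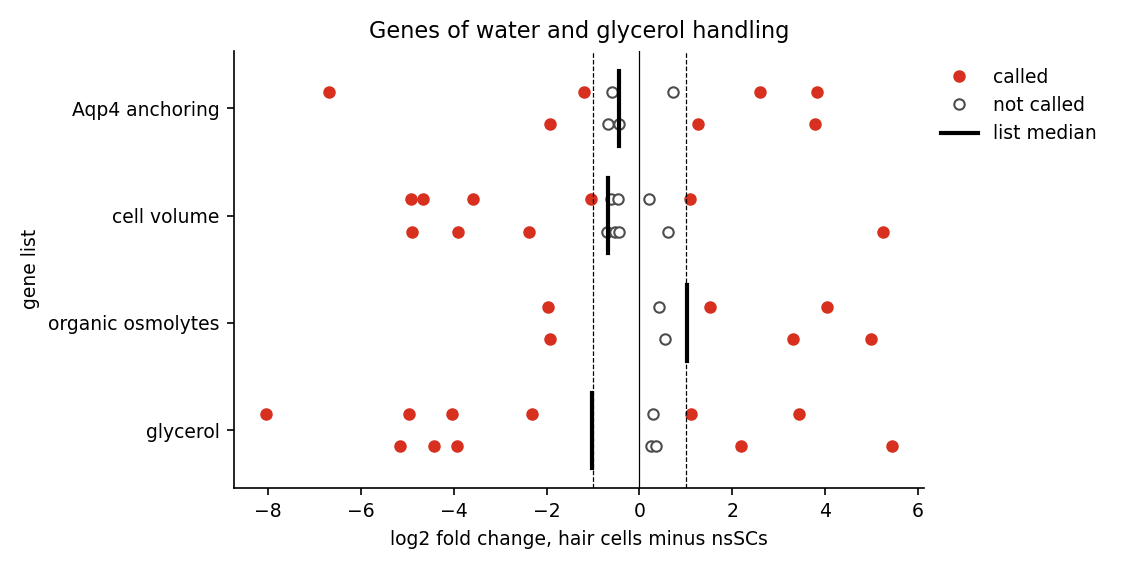
Log2 fold change (hair cells minus nsSCs) of each tested gene in 4 lists of water and glycerol handling, with filled red points for called genes, open points for genes not called, black bars for list medians and dashed lines at 2-fold. The medians are -0.44 for Aqp4 anchoring, -0.67 for cell volume, 1.03 for organic osmolytes and -1.03 for glycerol.

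The genes nearest in pattern to the leading aquaporins were found by Euclidean distance over the 6 libraries on log2(RPKM + 0.1) among the 22374 tested genes. Nearest to aqp11 were si:dkey-229e3.2 (distance 0.194), stim1a (0.218), a calcium sensor gene of the endoplasmic reticulum, and setbp1 (0.252). stim1a was at 14.2 ± 0.469 in hair cells against 4.23 ± 0.356 RPKM in nsSCs (SD, n = 3). Nearest to aqp3a were ctdsp1 (distance 0.521) and the cartilage collagen genes col9a1b (0.608) and col2a1a (0.609), the last at 0.643 ± 0.22 in hair cells against 41.9 ± 1.55 RPKM in nsSCs. Since the libraries fall into only 2 cell types, likeness over them is likeness in these 2 levels.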

How the data were processed

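The authors amplified RNA with a low-input SMART-Seq kit, mapped reads to GRCz10 in CLC Genomics Workbench and deposited RPKM values per gene and sample, rounded to 0.01. HTSeq count is also named, and versions are not given in the sources used here. Of 35919 entries, 31701 held values. No read counts could be recovered from the rounded values, so that the reads behind each value are unknown here and no counting interval is given (the methods state one approximate number of reads for all samples, and no total per library): 21, 486 and 229 genes were at 0.01 RPKM in hair cell replicates 1, 2 and 3, and 195 to 280 in the nsSC libraries.

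Genes whose mean reached 0.1 RPKM in hair cells, nsSCs or both were fitted with limma 3.58.1 (R 4.3.3, statmod 1.5.0; trend and robust moderation) on log2(RPKM + 0.1), and p-values were adjusted over all of them. The fit was tested on simulated data. An exact permutation test of 3 against 3 cannot go below p = 0.1. The labels call all 6 samples biological replicates, and the methods say that cells of several fish were pooled and that both cell types were picked from each fish. Members were matched by symbol, and 16 of 16 aquaporin identifiers were in the reference list of names. Members and lists (4 of water and glycerol handling, the further aquaporins, and 11 of cell type markers) came from general knowledge and were chosen with earlier results of these data known. Of each list, up to 3 called genes in each direction and 1 other were named by mean RPKM, and up to 2 markers, beside the 3 genes nearest to each leading member and genes that a result turned on. One gene that this rule names is not reported here. Alternatives were other pseudocounts, filters, scalings and fold minima, plain moderation, a replicate block and leaving out each sample. Gene order came from the RefSeq list of GRCz12tu. Plots used Python 3.11.15 and matplotlib 3.10.9.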

Additional observations from a re-analysis of the deposited data

How the results depend on the processing

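aqp3a and aqp1a.1 were called lower in hair cells under all 17 alternatives, with log2 fold changes of -6.02 to -4.47 and -4.55 to -3.42, and aqp11 was higher in all 17, at 1.16 to 2.11 (adjusted p from 7.5e-07 to 0.00011). A fold minimum of 4 ended the calls of aqp11 (1.63), which left 0 members called higher, of aqp4 (-1.26) and of aqp3b. A pseudocount of 1 RPKM ended the calls of aqp4 (-0.19), aqp3b and aqp8a.2. Hair cells were listed at 0 for these 3 genes, so that the pseudocount sets their fitted changes, which are not folds: aqp4 was at -3.86 with a pseudocount of 0.01 RPKM. Leaving out 1 sample at a time gave -5.67 to -5.5 for aqp3a, -4.24 to -4.01 for aqp1a.1, -1.46 to -1.14 for aqp4 and 1.56 to 1.71 for aqp11, with 1 member higher and 3 lower each time. The mean share in the aquaporin sum was 85.8 to 87.1% for aqp11 in hair cells, and 53.3 to 54.5% for aqp3a and 35.2 to 35.6% for aqp1a.1 in nsSCs.

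Over all genes, 6929 were called higher and 7917 lower in hair cells. A pseudocount of 1 RPKM gave 5278 and 4516, a filter of 1 RPKM 6017 and 5046, and a fold minimum of 4 gave 4008 and 5420. The split was 5471 and 9093 with median-ratio scaling, 8756 and 7024 with the same total, and 5748 and 8739 with the same total without mitochondrial genes. Same-numbered samples of the cell types did not deviate together (correlations -0.0468, 0.0227 and 0.00132 over the tested genes), nor did every sample correlate best with its own number. The methods have both cell types picked from each fish but do not say whether same-numbered samples shared fish, so that the samples were treated as unpaired. A replicate block gave 6953 and 7934 calls. It kept the calls of the 4 tested members and added that of aqp8b. The files hold no counts, so that values near 0.01 RPKM and a true absence could not be separated.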
